A study of Mus musculus with 3 samples.

Results

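The endoderm and the mesoderm of gastrulating mouse embryos were compared gene by gene, each from 1 array. The values are the deposited intensities of the Affymetrix Mouse Genome 430 2.0 array, where each probe set consists of several short oligonucleotides against the same transcript. A gene was read from a probe set with 1 gene symbol, and where it had several, from the one with the highest mean log2 intensity over the arrays. The comparison covered 12426 of 18193 genes, those whose higher value of the pair lay above the median of all deposited values, an intensity of 80.6 that is called the floor here. The other 5767 genes, dim in both layers, are not described. Genes were then read by functional family, with 73 families that ranged from transporters and lysosomal enzymes to signalling and transcription factors.

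Embryos of the outbred ICR strain were dissected at embryonic day 7.5 (E7.5), and the labels give no treatment. The arrays cover the embryonic region as dissected, without Reichert's membrane, and the layers were pulled apart by hand after mild enzyme digestion. The epiblast, with the neuroectoderm and the primitive streak, was on another array, and its intensity is given in places for context only. The sources used here give no number of embryos per array.

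The outer layer of the embryo at this stage is an epithelium. Much of it is visceral endoderm, which takes up nutrients through endocytic vesicles and lysosomes and secretes the serum proteins that the liver makes later, and cells of the definitive endoderm, the future gut, insert into it. The mesoderm consists of cells that left the epiblast through the primitive streak, gave up their epithelial junctions and migrated between the other layers to form heart, vessels, blood and somites.

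More genes were higher in endoderm than in mesoderm. Of the 12426 genes, 1455 were at least 2-fold higher in endoderm, a share of 11.7%, and 486 were at least 2-fold lower, a share of 3.91%. Where values below the floor were raised to it, which turns a fold against a dim value into a lower bound, 1296 genes (10.4%) were higher and 408 (3.28%) lower. By that bounded fold, 138 genes were at least 8-fold higher in endoderm and 15 at least 8-fold lower, and at 16-fold there were 63 and 2. The median log2 difference over all genes was 0.08, with quartiles of -0.18 and 0.46. With 1 array a side no difference has a replicate check and no p-value is given. The only error at hand is the scatter of a gene's probe sets around each other, a pooled SD of 0.39 on the log2 scale over 5369 genes, which measures the probe sets and not the embryos. Of the 789 genes called with several probe sets above the floor, 439 had all of them at least 2-fold in the called direction and 63 had some of the opposite sign. Scaling moved these counts in part: quantile normalization took the median of all genes from 0.08 to -0.08 and left 1157 genes higher and 595 lower, so that a difference near 0 has no settled direction. Below, paired values are intensities in endoderm first and mesoderm second, and a fold in brackets is the higher over the lower, with "at least" where the lower value was below the floor. Where a family count of 5 or more moved by over 1.5 times under another processing, its range over all settings stands in brackets. Some settings, such as a floor at the 75th percentile of all values, compared fewer genes. The low end of a range can thus come from fewer members than the family total printed with it. Family counts are to be read beside the 11.7% higher and 3.91% lower over all genes. In these whole-layer samples, fewer cells of a type and less RNA per cell cannot be told apart.

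**Figure D1:**
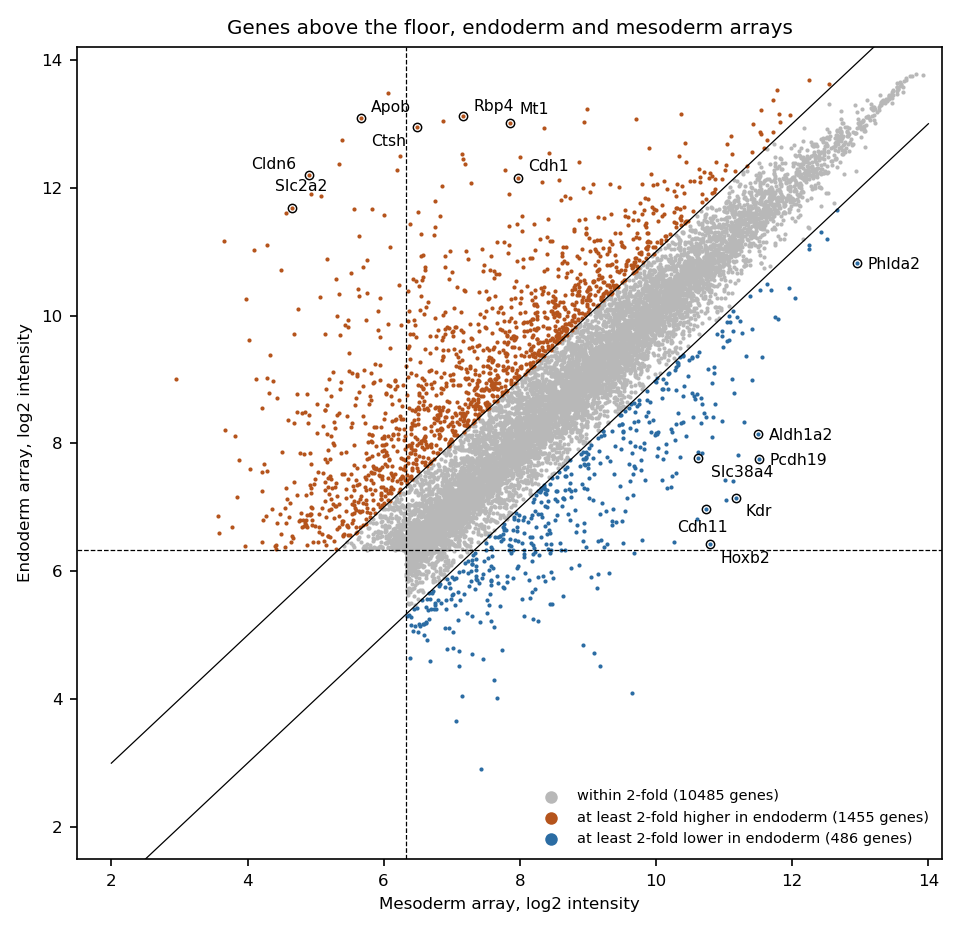
Log2 intensity of 12426 genes on the mesoderm array (x axis) and the endoderm array (y axis), 1 point per gene, with solid lines at a 2-fold difference and dashed lines at the floor. The 1455 higher genes spread far above the upper line, up to Apob, Cldn6 and Slc2a2 with mesoderm values below the floor, while the 486 lower genes lie closer to the lower line.

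Markers of both layers followed the labels for the most part. All 15 visceral endoderm markers above the floor were at least 2-fold higher in endoderm (median log2 difference 5.96), as were 9 of 13 definitive endoderm markers, among which Cxcr4 was lower. All 13 markers of nascent and paraxial mesoderm and 9 of 12 of the lateral plate, cardiac and extra-embryonic mesoderm were lower there, as were 4 of 11 haemato-endothelial genes. Parietal endoderm genes went both ways, with 3 higher and 4 lower of 10 and sums of 15340.2 in endoderm and 8162 in mesoderm. The 11 primitive erythroid genes summed to 536 in endoderm and 577 in mesoderm. Of these, 9 were below the floor, among them the erythroid factor gene Klf1 and the haem enzyme gene Alas2. The 18 blood cell and decidual genes summed to 1281 and 1286. Here 13 were below the floor, among them the leucocyte gene Ptprc and the decidual prolactin Prl8a2. Of the 5 above it, 1 was at least 2-fold higher in endoderm (log2 difference 1.85), and 0 with dim values raised to the floor. Sums over genes mostly below the floor cannot show whether such cells differed between the layers. Of 11 genes of trophoblast and extra-embryonic ectoderm above the floor, 5 (range 3 to 5) were at least 2-fold higher in endoderm. The low end was 3 of the 4 members left with the floor at the 75th percentile. The list summed to 7713 in endoderm and 2668 in mesoderm. The largest term was Rhox5, an X-linked homeobox gene, at 3726 and 403 (9.24-fold), while the trophoblast factor Elf5 was below the floor, and the part of such tissue in the results below was not tested. Markers of the epiblast, the inner neighbour, summed to 19699 and 14348, and 4 of 14 were higher and 4 lower in endoderm.

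**Figure D2:**
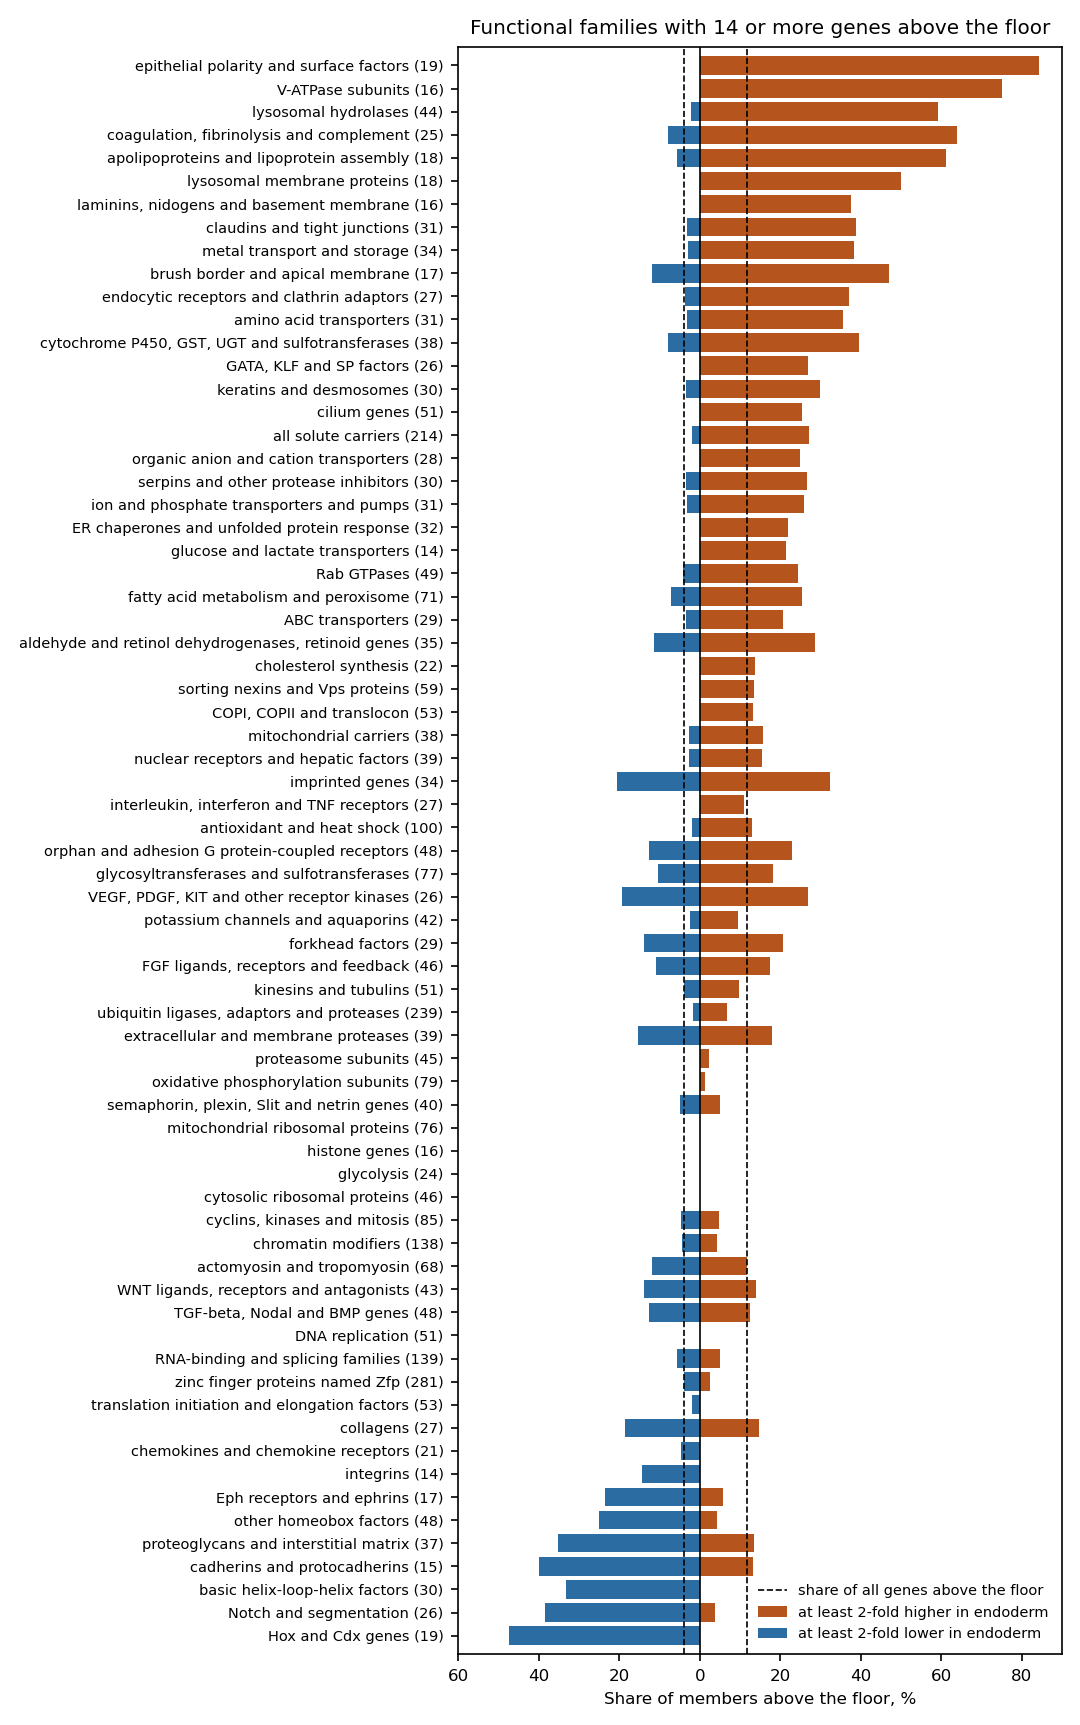
Share of members above the floor that were at least 2-fold higher in endoderm (right, orange) or lower (left, blue) for the 69 functional families with 14 or more members above the floor (number in brackets), with dashed lines at the shares over all genes, 11.7% and 3.91%, sorted by the higher share minus the lower. Epithelial factors, V-ATPase subunits and lysosomal hydrolases lie at the top, and Hox, Notch and basic helix-loop-helix genes at the bottom.

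Uptake and digestion of material from outside the cell, the work of the visceral endoderm, was described in 6 families, from the receptors at the surface to the enzymes of the lysosome. Among endocytic receptors and clathrin adaptors, 10 of 27 were at least 2-fold higher and 1 was lower. Cubn, the receptor cubilin that takes up proteins and vitamin B12 complexes, had an intensity of 6854 in endoderm and 41.7 in mesoderm (at least 85-fold). Folr1, the folate receptor, was 1418 and 91.4, a 15.5-fold difference. Dab2, an adaptor that brings such receptors into clathrin pits, was 8359 and 493 (17-fold). Scarb1, the receptor for high-density lipoprotein, was 1323 and 169 (7.84-fold). A further 16 members stayed within 2-fold. The lower member was Vldlr, the very low density lipoprotein receptor, at 129.9 in endoderm and 330.5 in mesoderm, or 2.54-fold lower, with 4 of its 5 probe sets at least 2-fold in that direction.

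Downstream of the receptors, the sorting genes differed less but mostly the same way. Of 59 sorting nexins and Vps proteins, which steer cargo between endosomes, 54 had a positive log2 difference, 8 (13.6%) reached 2-fold and none was 2-fold lower. Vps26a, a subunit of the retromer that returns receptors to the surface, was 3082 in endoderm and 651 in mesoderm (4.74-fold). Snx10, a nexin of vesicle acidification, was 959 and 245 (3.92-fold). Other members were closer, with the retromer core gene Vps35 at 4142 and 2184 and Snx5 level at 3256 and 3122 over 5 probe sets. Rab GTPases, the switches that give each vesicle its identity, were higher for 12 of 49 genes, lower for 2, and the higher ones included Rabs of recycling and of polarised epithelia. Rab4a, of fast recycling, was 2356 and 315, or 7.47-fold higher. Rab11a, of slow recycling, was 4862 and 1673 (2.91-fold), and the epithelial Rab17 and Rab25 were 553 and 175 (3.15-fold), and 378 and 112 (3.38-fold). Rab5a, the early endosome switch, stayed within 2-fold at 2743 and 2122, whereas Rab39b was lower at 56.6 and 205 (at least 2.54-fold).

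Most subunits of the proton pump that acidifies these compartments were higher. Of 16 V-ATPase subunits and accessory proteins above the floor, 12 were at least 2-fold higher in endoderm and all 16 had a positive difference, with a median log2 difference of 1.45 and a range from 0.24 to 2.32. Atp6v0b, a subunit of the membrane ring, was 2504 and 503 (4.98-fold) with 3 of 3 probe sets at least 2-fold higher. Atp6v1a, the catalytic subunit, was 3222 and 1025 (3.14-fold). Atp6v0d1, of the stalk, was 3002 and 1086 (2.76-fold). No subunit above the floor was lower in endoderm.

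Lysosomal hydrolases spread over a wide range. Of 44 above the floor, 26 were at least 2-fold higher, 1 was lower, and the median log2 difference was 1.16. Ctsh, a cathepsin that trims peptides from the amino end, was 7902 in endoderm and 89.5 in mesoderm (88.3-fold), with 54.1 in epiblast. Lgmn, the asparaginyl protease legumain, was 5684 and 256 (22.2-fold). Manba, the beta-mannosidase, was 1297 and 40.6, so at least 16.1-fold higher. These enzymes were at least 16-fold higher in endoderm. Ctsl, a broad cathepsin, was bright in both layers at 9473 and 2995 (3.16-fold). Of the 18 lysosomal membrane proteins above the floor, 9 were higher and none was lower. Npc1, which exports cholesterol, was 1188 and 341 (3.48-fold), and Lamp2, a main glycoprotein of the membrane, was 2745 and 913 (3.01-fold) with 4 of 4 probe sets at least 2-fold higher. Mcoln1, the calcium channel mucolipin, was 884 and 295 (3-fold). Tfeb, the gene of a factor that drives lysosomal genes, was itself 473 and 193 (2.46-fold).

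Start-site windows of the lysosomal genes were read for the palindrome TCACGTGA, the core of the element bound by TFEB and related factors. The windows are those of RefSeq on GRCm38.p6, 250 bases before to 50 after each start, and the palindrome, which contains the E-box CACGTG, is the same on both strands. A gene with several starts has several windows, and overlapping windows share sequence. It was found in 9 of 77 windows (11.7%) of the 3 lysosomal families, against 227 of 12846 (1.77%) for all genes above the floor and 320 of 32851 (0.974%) in the whole table. V-ATPase subunits had it in 3 of 11. It also lay in 4 of 73 windows (5.48%) of the mitochondrial ribosomal genes, which stayed within 2-fold. By the bounded fold, genes at least 2-fold higher in endoderm had it in 2.38% of windows, and genes within 2-fold in 1.73%. Genes at least 16-fold higher had it in 0 of 70 windows. The lysosomal lists were chosen with earlier results of these data known, and a part of TFEB in the differences was not tested. The stretches below are shown because each gene was at least 2-fold higher in endoderm and holds the palindrome (in capitals) upstream of its start. They are 5′ to 3′ in the direction of the gene, on GRCm38.p6.
Ctsa, chr2:164833700-164833772 (+ strand): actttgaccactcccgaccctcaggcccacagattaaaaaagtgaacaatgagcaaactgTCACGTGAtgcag
Mcoln1, chr8:3500413-3500518 (+ strand): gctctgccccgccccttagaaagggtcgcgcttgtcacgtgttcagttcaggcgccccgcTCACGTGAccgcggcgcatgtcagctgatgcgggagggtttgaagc
Atp6v1a, chr16:44139324-44139451 (- strand): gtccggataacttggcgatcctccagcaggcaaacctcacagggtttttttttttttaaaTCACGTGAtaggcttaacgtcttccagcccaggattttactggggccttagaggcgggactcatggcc

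Ctsa, the protective protein cathepsin A, whose palindrome ends 5 bases before the start, was 2323 in endoderm and 563 in mesoderm (4.12-fold). The gap was 38 bases for Mcoln1 and longer for Atp6v1a. A match is a description of letters, and binding was not measured.

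Carriers of the plasma membrane were described in several families. Of 214 solute carriers above the floor, 58 (27.1%) were at least 2-fold higher and 4 lower, at a median log2 difference of 0.36. Against the floor as a bound, 52 and 3 were called. Carriers with large bounded differences carry very different substrates. Slc2a2, the glucose transporter GLUT2 of liver and gut, was 3290.3 in endoderm and 25.1 in mesoderm, or at least 40.8-fold higher. Slc13a4, a sulfate carrier, was 4292 and 156 (27.6-fold). Slc7a9, the light chain of the cystine and basic amino acid transporter, was 2094 and 17 (at least 26-fold), while its usual partner Slc3a1 was below the floor. Slc23a1, a vitamin C carrier, was 1100.1 and 26.6 (at least 13.6-fold). Apart from Slc13a4, these carriers were below the floor in mesoderm.

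Amino acid carriers were split between 11 higher, 1 lower and the rest within 2-fold out of 31. Slc43a2, for large neutral amino acids, was 936 and 66.8 (at least 11.6-fold). Slc16a10, the aromatic amino acid carrier, was 882 and 119.6 (7.38-fold). Slc7a7, of the basolateral side of absorptive cells, was 786 and 116 (6.76-fold). In the other direction stood Slc38a4, an imprinted neutral amino acid carrier, at 218 in endoderm and 1574 in mesoderm (7.23-fold), with 527 in epiblast, and both probe sets were at least 4-fold lower in endoderm. It was the only solute carrier at least 4-fold lower in endoderm. Among glucose and lactate carriers only 3 of 14 reached 2-fold. Slc2a3, the high-affinity GLUT3, was 13137 and 4869.9 (2.7-fold), and Slc16a1, the lactate carrier MCT1, was 10606 and 3356 (3.16-fold). Slc2a1, the common GLUT1, was close at 8638 and 6735.

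Of the genes of metal handling, 13 of 34 were at least 2-fold higher and 1 was lower. The metallothioneins Mt1 and Mt2, small proteins that bind zinc and copper, differed widely although bright in endoderm. Mt1 was 8281 in endoderm and 231 in mesoderm (35.9-fold), with 2798 in epiblast. Mt2 was 7803, 329 and 3719. Both were thus low in mesoderm and high in the layers on either side of it. Slc39a5, a zinc importer, was 1549 and 95.2 (16.3-fold), and Slc39a4, the zinc importer of the gut, was 781 and 144 (5.44-fold). Slc40a1, the iron exporter ferroportin, was 1307 and 54 (at least 16.2-fold). Atp7b, the copper pump of liver, was 1526 and 86.1 (17.7-fold) by its brightest probe set, but only 1 of 3 probe sets reached 2-fold.

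Pumps and channels had smaller shares. ABC transporters were higher for 6 of 29 and lower for 1. Abca3, a lipid pump, was 1076 and 60.3 (at least 13.4-fold), and Abcc2, the apical exporter of conjugates, was 359 and 26.5 (at least 4.45-fold). Abca1, which loads cholesterol on lipoprotein, was level at 382 and 391. The beta subunits of the sodium pump differed in opposite directions. Atp1b1 was 4075 in endoderm and 486 in mesoderm (8.38-fold), with 4 of 5 probe sets at least 2-fold higher and the other near 0, while Atp1b2 was 259 and 783 (3.02-fold). Organic anion carriers were higher for 7 of 28, with Slco4c1 at 787 and 16.3 (at least 9.76-fold). Potassium channels and aquaporins were higher for 4 and lower for 1 of 42, and 37 stayed within 2-fold. Both shares (9.52% and 2.38%) were below those of all genes, 11.7% and 3.91%. Of the water channels, Aqp11 was 793 and 158 (5.02-fold), and Aqp3 was 581 and 189.7 (3.06-fold). Mitochondrial carriers were higher for 6 of 38. The dicarboxylate carrier Slc25a10 was 1258 and 299 (4.21-fold), and the main ADP/ATP carrier Slc25a5 was close at 9561 and 8377 over 8 probe sets.

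Secreted serum proteins, which the visceral endoderm makes before the liver does, were higher in endoderm in most listed families. Of 18 genes of apolipoproteins and lipoprotein assembly, 11 were at least 2-fold higher and 1 was lower, with a median log2 difference of 1.87. Apom, the carrier of sphingosine phosphate, was 3139.96 and 90.8 (34.6-fold). Mttp, which loads lipid on nascent lipoproteins, was 1944 and 119 (16.3-fold). The lower gene was Lpl, the lipase that takes fatty acids off lipoproteins, at 63.8 in endoderm and 350.5 in mesoderm (at least 4.35-fold), with 704 in epiblast. Coagulation, fibrinolysis and complement genes were higher for 16 of 25. Fgb, Fgg and Fga, the chains of fibrinogen, were 929, 837 and 297 in endoderm and all below the floor in mesoderm. Plg, plasminogen, was 426 and 69.1 (at least 5.29-fold). The lower members were receptors of this system on the cell surface. F2r, the thrombin receptor, was 1380.3 and 3971 (2.88-fold), and Thbd, thrombomodulin, was 51 and 137. Both were at least 2-fold higher in mesoderm before the bound, while the fibrinogen and plasminogen genes were higher in endoderm.

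Proteases went both ways. Of 39 above the floor, 7 were at least 2-fold higher and 6 (range 2 to 7) lower. Of the higher ones 5 are anchored in the cell membrane. Tmprss2, a serine protease of the apical surface, was 3740.2 in endoderm and 33.8 in mesoderm (at least 46.4-fold), with 3 of 3 probe sets. Prss8, prostasin, was 2162 and 68.3 (at least 26.8-fold), and its partner St14, matriptase, was 509.9 and 61.5 (at least 6.32-fold). Dpp4, a dipeptidyl peptidase of the brush border, was 1367 and 49.1 (at least 17-fold). Of the lower ones 4 are secreted. Mmp2, a gelatinase, was 197 in endoderm and 822 in mesoderm (4.18-fold). Htra1 was 104 and 332 (3.18-fold), and Adamts20, of the group that cuts versican, was 34.8 and 196 (at least 2.44-fold). Serpins and other protease inhibitors were higher for 8 and lower for 1 of 30, and 21 stayed within 2-fold. Inhibitors of the membrane proteases were higher, as Spint1 was 1063 and 141 (7.56-fold) and Spint2 was 4283 and 643 (6.66-fold). Spink1, a trypsin inhibitor and the gene with the largest bounded difference, was 11473 and 67.1 (at least 142-fold).

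Genes of the secretory pathway, which such products pass through, differed by less. Of 53 coat and translocon genes 52 had a positive difference, but 7 (range 3 to 7) reached 2-fold. Sec24d and Sec24a, cargo adaptors of COPII vesicles, were 811 and 117 (6.94-fold), and 2229.6 and 656 (3.4-fold). The coat partner Sec23b was 2596 and 1525, within 2-fold. Chaperones of the endoplasmic reticulum were higher for 7 (range 3 to 7) of 32. Creb3l3, a membrane-bound factor of liver and gut, was 987 and 289 (3.42-fold). Hspa5, the chaperone BiP, was close at 9346 and 7959.5.

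**Figure D3:**
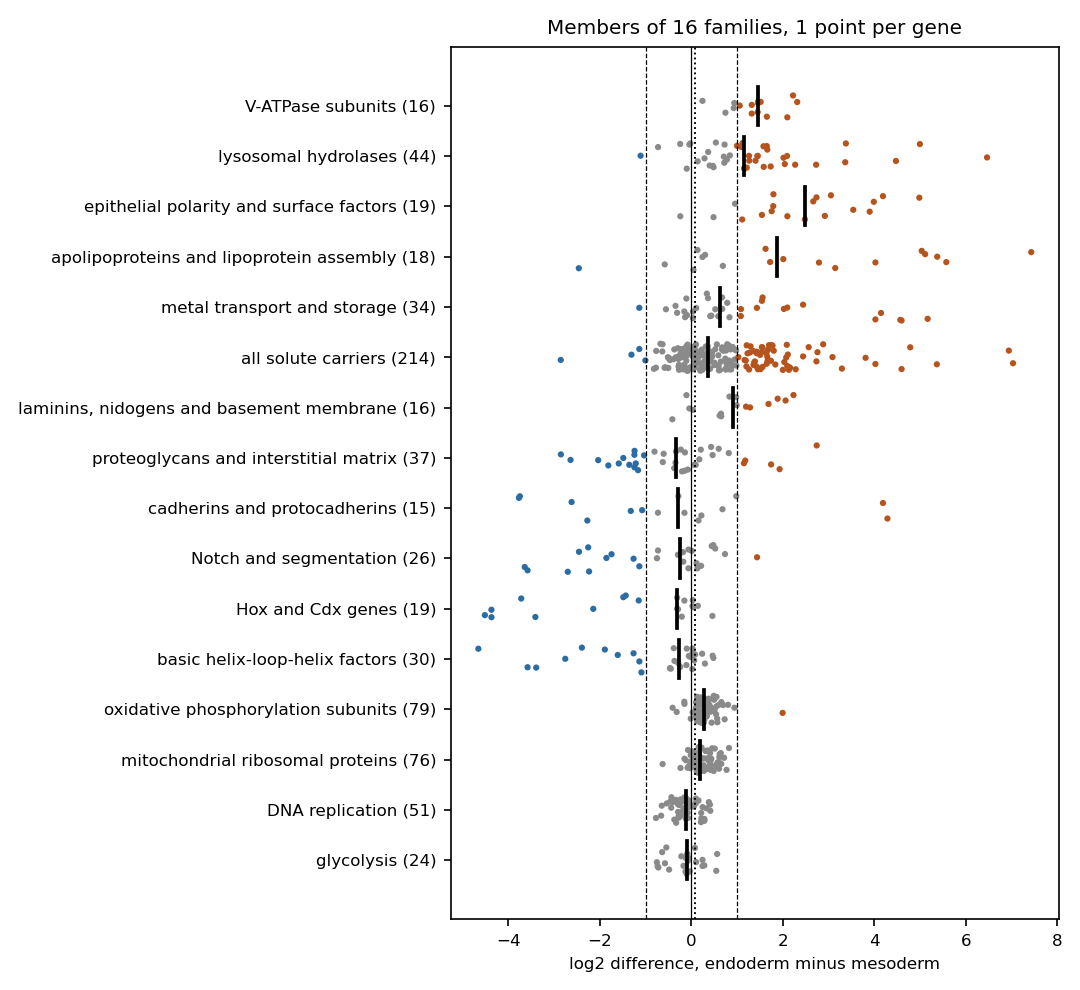
Log2 difference of each member above the floor (1 point per gene, number in brackets) for 16 families, coloured where it reached 2-fold (dashed lines), with a thick bar at the family median and a dotted line at the median of all genes, 0.08. V-ATPase subunits all lie above 0, hydrolases, apolipoproteins and carriers have long tails to the right, cadherins have members at both ends, and mitochondrial ribosome, replication and glycolysis genes all lie within 2-fold, as do all oxidative phosphorylation genes but 1.

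Epithelial genes gave the highest share of the families with 14 or more members. Of 19 epithelial polarity and surface factors, 16 were at least 2-fold higher and none was lower, at a median log2 difference of 2.48. Epcam, the epithelial adhesion molecule, was 4438 in endoderm and 381 in mesoderm (11.6-fold), with 3456 in epiblast. Esrp1, the epithelial splicing regulator, was 1508, 94.9 and 1173. Grhl2, a factor that keeps epithelia epithelial, was 588, 137 and 615. For these genes mesoderm stood low, and endoderm and epiblast were within 2-fold of each other. Other probe sets were flatter for Epcam, where 1 of 2 reached 2-fold, and Grhl2, where 1 of 3 did.

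Junction genes were higher too. Of 31 claudins and tight junction genes above the floor, 12 were higher and 1 was lower. Cldn6, a claudin of embryonic epithelia, was 4676 in endoderm and 30.1 in mesoderm (at least 58-fold), and Cldn7 was 3829 and 30.4 (at least 47.5-fold). Cldn2, which forms a pore for cations, was 3026 in endoderm and 113.7 in mesoderm (26.6-fold), with 51.6 in epiblast, so it was low in both other layers, and 1 of its 2 probe sets reached 2-fold. Cgn, cingulin, which links junctions to the cytoskeleton, was 1078 and 83 (13-fold). The lower gene was Jam3, a junction adhesion molecule, at 157 and 506 (3.23-fold). Keratins and desmosomes were higher for 9 of 30. Krt19 was 998 and 107 (9.29-fold), whereas Krt8 was 9001 and 4001 (2.25-fold) and so bright in both. The intermediate filament of mesenchyme, Vim, was lower at 2206 and 4882 (2.21-fold), with 3 of 3 probe sets. Of 17 brush border and apical membrane genes, 8 were higher and 2 lower. Vil1, the villin of microvilli, was 2435 and 49.9 (at least 30.2-fold), and Pdzk1, a scaffold of apical transporters, was 2067 and 148 (13.9-fold). Anpep, an aminopeptidase of the brush border, was lower at 33.1 and 129. Ezr, ezrin, was 4256 and 540.3 (7.88-fold), while its paralogue Msn, moesin, went the other way at 574 and 1735 (3.02-fold). Calcium-binding S100g, of absorptive gut cells, was 2203 and 19.5 (at least 27.3-fold).

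The same RefSeq windows were read for the E-box CAGGTG, on both strands, since it is the box bound by SNAI and ZEB repressors of epithelial genes, whose own genes were measured here. Snai2 was 17.1 in endoderm and 802 in mesoderm (at least 9.95-fold), Snai1 was 51 and 289 (at least 3.58-fold), and Zeb1 was 71.5 and 288 (at least 3.58-fold), all higher in mesoderm. Zeb2 was 154 and 160.3 by its brightest probe set, but 4 of its 5 probe sets were at least 2-fold higher in mesoderm. The box lay in 8 of 13 windows of the epithelial polarity and surface factors (61.5%) and in 17 of 36 of the claudins and tight junction genes (47.2%), against 18.8% of the windows of all genes above the floor and 20.2% of the whole table. By size of the bounded difference its share was 34.3% for genes at least 16-fold higher in endoderm, 28.8% from 4-fold to 16-fold, 26.2% from 2-fold to 4-fold, 17.9% within 2-fold and 13.6% for genes at least 2-fold lower. Windows with a CpG count at or below the median of 20 had it in 25.8%, 20.2% and 16.3% for genes higher, within and lower, and windows above it in 29.5%, 15.5% and 10.7%. The shares of the related box CAGCTG were 25.7%, 18.6%, 20.8% and 14.7% from the 16-fold class to the class within 2-fold, and 16.2% and 22.7% for genes from 2-fold to 4-fold and at least 4-fold lower. In all 9 motifs were searched, and CAGGTG was chosen for display after the values were seen. The lists of epithelial and junction genes were chosen with earlier results of these data known. Of their 19 and 31 genes above the floor, 12 and 24 had a window. Other motifs were also more frequent in the 16-fold class than within 2-fold. The shares were 14.3% and 6.5% for GATA, 7.14% and 2.65% for forkhead, and 2.86% and 0.29% for HNF1. In the 16-fold class these were 10, 5 and 2 of 70 windows. The whole table had 11.2%, 3.65% and 0.801%. The median CpG count per window was 8 in the 16-fold class, 20 within 2-fold and 7 in the whole table. No split by CpG count was made for these motifs. CATCTG had 12.9% and 11.3%. Lower in the 16-fold class were CACGTG (5.71% and 9.58%), HNF4 (0% and 0.353%) and the TFEB palindrome (0% and 1.73%). A part of the repressors was not tested. The stretches below belong to epithelial genes described here and carry the box, read on either strand, in capitals.
Cldn6, chr17:23679212-23679337 (+ strand): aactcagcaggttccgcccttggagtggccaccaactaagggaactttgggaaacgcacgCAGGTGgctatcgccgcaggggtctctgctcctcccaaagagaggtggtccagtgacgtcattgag
Cldn7, chr11:69965264-69965420 (+ strand): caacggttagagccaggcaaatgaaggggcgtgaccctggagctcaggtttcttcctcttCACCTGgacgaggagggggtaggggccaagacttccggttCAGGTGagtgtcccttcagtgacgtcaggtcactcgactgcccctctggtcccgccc
Spint2, chr7:29281978-29282111 (- strand): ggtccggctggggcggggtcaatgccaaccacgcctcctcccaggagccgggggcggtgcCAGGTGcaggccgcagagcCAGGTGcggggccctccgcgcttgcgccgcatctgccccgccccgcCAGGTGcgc

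The Cldn7 stretch holds 2 boxes, 91 and 51 bases before the start, and the Spint2 stretch holds 3. In epiblast, Cldn7 was 863 and Spint2 was 3150.04, both above their mesoderm values. Binding of the repressors was not measured.

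**Figure D4:**
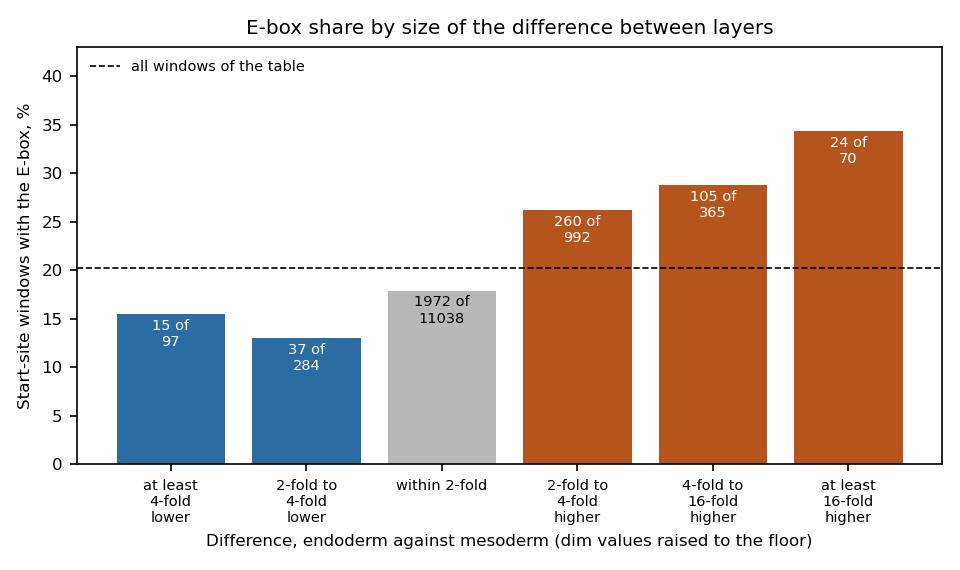
Share of RefSeq start-site windows with the E-box on either strand (y axis, %) for genes grouped by the bounded fold between endoderm and mesoderm (x axis), with the number of windows in each bar and a dashed line at the whole table, 20.2%. The share runs from 34.3% for genes at least 16-fold higher in endoderm to 17.9% within 2-fold, and is 13% and 15.5% in the bars of lower genes.

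Several adhesion and matrix families had more lower than higher members. Of 15 cadherins and protocadherins above the floor, 2 were higher in endoderm and 6 lower. Cdh1, E-cadherin, was 4562 in endoderm and 249.9 in mesoderm (18.3-fold), and Pcdh1 was 420.1 and 21.5 (at least 5.21-fold). Cdh11, a cadherin of mesenchyme, was 126 in endoderm and 1711 in mesoderm, or 13.6-fold lower. Pcdh19 was 217 and 2918 (13.4-fold) with 3 of 3 probe sets at least 2-fold lower, Pcdh8, of the presomitic mesoderm, was 325 and 1995 (6.13-fold), and Pcdh18 was 234 and 1129 (4.83-fold). Cdh2, N-cadherin, differed less, at 966 and 2417 (2.5-fold).

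Genes of the basement membrane, the sheet beneath epithelia, and of the matrix between cells went in different directions. Of 16 basement membrane genes, 6 were at least 2-fold higher in endoderm and none was lower. Nid2, a nidogen, was 2500.2 and 675 (3.7-fold), and Agrn, agrin, was 3953 and 1226 (3.22-fold). Lama1, the laminin chain of the early embryo, was level at 539.8 and 527, against 101 in epiblast. Collagens went both ways, with 4 higher and 5 lower of 27. Col4a1, of basement membranes, was 4784 and 1775 (2.7-fold), and Col18a1 was 2517 and 711 (3.54-fold). Col5a2, a fibrillar collagen, was 57.5 in endoderm and 329.5 in mesoderm (at least 4.09-fold), and Col13a1, a collagen of the cell surface, was 61.9 and 567 (at least 7.03-fold). Among proteoglycans and interstitial matrix, 13 (range 7 to 14) of 37 were lower in endoderm and 5 (range 3 to 5) higher. Vcan, versican, was 109.7 and 684 (6.23-fold). Has2, which makes hyaluronan, was 143 and 429 (3-fold), and Cd44, its receptor, was 83.3 and 601 (7.21-fold). All 3 belong to the hyaluronan matrix and all were higher in mesoderm. Among integrins, the matrix receptors, none of 14 was 2-fold higher and 2 were lower, with Itga8 at 78.8 and 299.6 (at least 3.72-fold), and Itgb5 at 362 and 829 (2.29-fold). Fn1, fibronectin, was within 2-fold at 3873 and 5886. Sdc4, a syndecan, was higher in endoderm, at 1905 and 285 (6.69-fold).

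Of the cytoskeleton, actomyosin genes had 8 higher and 8 (range 5 to 11) lower of 68, a share of 11.8% on each side. The higher share was that of all genes (11.7%), while the lower one was above 3.91%. The higher genes included myosins that move vesicles. Myo6, the motor of endocytic vesicles at microvilli, was 1739 in endoderm and 51.8 in mesoderm (at least 21.6-fold) with 3 of 3 probe sets, and Myo5b, of apical recycling, was 391 and 32.4 (at least 4.85-fold). The lower genes included those of muscle. Myl7, the atrial light chain, was 323 in endoderm and 2502 in mesoderm (7.75-fold), with 262 in epiblast. Myl1 was 45 and 349.7 (at least 4.34-fold), and the troponin gene Tnni1 was 56.7 and 225 (at least 2.79-fold). Cilium genes were higher for 13 (range 3 to 13) of 51 and none was lower. The low end was 3 of the 22 members left with the floor at the 75th percentile. Against the usual floor as a bound, 8 of 51 were called. Foxj1, the master factor of motile cilia, was 530.1 and 48.6 (at least 6.57-fold), Cfap126 was 526 and 82.2 (6.4-fold), and the radial spoke gene Rsph4a was 208 and 35.9 (at least 2.58-fold). Ift88, of transport within cilia, was close at 198 and 164. Of the microtubule genes, 5 (range 2 to 5) of 51 kinesins and tubulins were higher and 2 lower. These shares, 9.8% and 3.92%, were near those of all genes, and 33 of the 51 had a negative difference. The higher ones included Tuba4a at 2931 and 498 (5.89-fold), and Kif21a at 964 and 228 (4.22-fold).

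**Figure D5:**
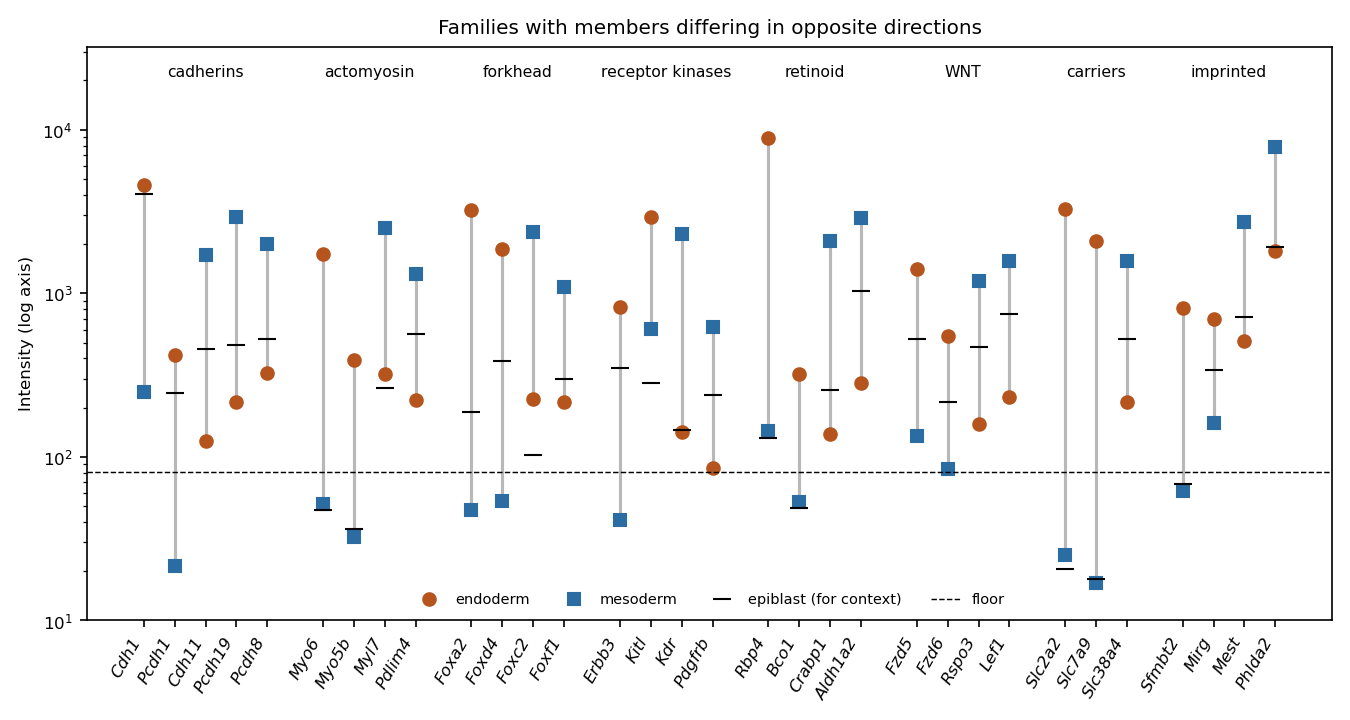
Intensity (log axis) of 32 genes from 8 groups whose members differ in opposite directions, with endoderm as orange circles, mesoderm as blue squares, epiblast as black bars and the floor as a dashed line, 1 array each. In every group some genes have the circle above the square, such as Cdh1, Myo6, Foxa2 and Rbp4, and others the square above the circle, such as Cdh11, Myl7, Foxc2 and Crabp1.

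Most signalling families had members past 2-fold on both sides, whereas those of the Notch family were mostly lower. Of 43 WNT genes, 6 were higher and 6 lower in endoderm, a share of 13.95% on each side. The higher share was near the 11.7% of all genes, while the lower one was above 3.91%. Of 10 Fzd receptor genes, 2 were higher and 1 was lower, at a median log2 difference of -0.35. Fzd5 was 1403 in endoderm and 135 in mesoderm (10.4-fold), though only 1 of its 2 probe sets reached 2-fold, and Fzd6 was 551 and 84.8 (6.5-fold), likewise with 1 of 2. Dkk1, a secreted antagonist, was 3326 and 985 (3.38-fold). The lower WNT genes included ligands and effectors. Wnt2 was 28.8 and 488 (at least 6.06-fold), the amplifier Rspo3 was 159 and 1187 (7.47-fold), and Lef1, a nuclear effector, was 234 and 1566 (6.7-fold). In the TGF-beta, Nodal and BMP family 6 were higher and 6 lower of 48 (12.5% each), so the higher share was again near that of all genes. Bmp4 was 113 and 1552 (13.7-fold), while Bmp2 was 1727 and 810.2 (2.13-fold), so that these related ligands were high in opposite layers. Lefty2, a Nodal antagonist, was 185 and 1259 (6.79-fold). Fst, follistatin, which binds activin, was 299.96 in endoderm and 1189 in mesoderm (3.96-fold), with 2752 in epiblast. Id1, a target of BMP signals, was 3152 and 1235 (2.55-fold).

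FGF ligands and feedback genes differed in direction for the most part, with 8 higher and 5 lower of 46. Fgf3 was 60.5 and 530.04 (at least 6.57-fold), and Fgf15 was 68.9 and 467 (at least 5.79-fold). Spry1, a feedback inhibitor, was 868 and 169 (5.14-fold), and Klb, the coreceptor beta-klotho of liver, was 595 and 80.5 (at least 7.38-fold). Spry4, of the same group of inhibitors as Spry1, was 327 and 143 (2.28-fold). Fgf5 went against Fgf3 and Fgf15 at 476 and 120.5 (3.95-fold), with 1 of 2 probe sets, and the receptor gene Fgfr1 was 690.4 and 1587 (2.3-fold), with 3 of 3. Receptor tyrosine kinases and their ligands were higher for 7 (range 4 to 7) and lower for 5 of 26. Kdr, the VEGF receptor of vessel and blood precursors, was 142 and 2299.8 (16.2-fold). Pdgfra was 982 in endoderm and 3545 in mesoderm (3.61-fold), while its ligand gene Pdgfa was 715 and 346 (2.07-fold). Kitl, the KIT ligand, was 2944 and 605 (4.86-fold), with 4 of 4 probe sets at least 2-fold higher. Erbb3, a neuregulin receptor, was 826 and 41 (at least 10.2-fold). Notch and segmentation genes were lower for 10 of 26, and Nrarp, a feedback gene of the pathway, was higher at 492 and 182 (2.71-fold). Dll1, a Notch ligand, was 392 and 1869 (4.77-fold). Tbx6, a factor of the presomitic mesoderm, was 111 and 721 (6.5-fold). Among guidance genes, Epha2 was 932 and 153 (6.07-fold), whereas Efna1, an ephrin that binds it, was 84.2 and 234 (2.78-fold). Of the semaphorin, plexin, Slit and netrin genes 2 of 40 were higher and 2 lower, among them Sema4d at 555 and 149 (3.73-fold), and the Slit receptor Robo1 at 727 and 2032 (2.79-fold).

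G protein-coupled receptors, of orphan and adhesion kinds and some with known ligands, were higher for 11 (range 6 to 11) and lower for 6 of 48. Lpar1, a receptor of lysophosphatidic acid, was 1816 and 415 (4.38-fold), while Aplnr, the apelin receptor, was 2529 and 5471 (2.16-fold). Tnfrsf12a, the TWEAK receptor, was 1354 and 146 (9.3-fold), the largest difference among 27 cytokine receptors above the floor. Of the 51 chemokine genes on the array, 30 were below the floor, and 1 of the other 21 passed 2-fold, namely Cxcr4 at 495 and 1138 (2.3-fold).

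Transcription factor families with more lower than higher members were those of Hox, basic helix-loop-helix, T-box and other homeobox genes and of the Zfp zinc fingers. For the Zfp genes the lower share was that of all genes, 3.91%. Hox and Cdx genes were lower for 9 (range 3 to 9) of 19 and higher for none. The low end was 3 of the 4 members left with the floor at the 75th percentile. Basic helix-loop-helix factors were lower for 10 of 30 and higher for none, and other homeobox factors lower for 12 of 48 and higher for 2. T-box factors were lower for 2 of 7 and higher for 1. Hoxb1, of the hindbrain and posterior mesoderm, was 171 in endoderm and 2247 in mesoderm (13.2-fold), with 1470.4 in epiblast, and Hoxb2 was 86.2, 1782 and 829.5. Meis2 and Meis1, cofactors of Hox proteins, were lower too, at 172 and 1085 (6.32-fold), and 172 and 914 (5.3-fold). Pbx3, a further cofactor, was 436 and 1562 (3.58-fold). Twist1, a mesenchymal factor, was 413 and 1528 (3.7-fold), and Tcf21 was 77.7 and 815 (at least 10.1-fold). Mycn, a Myc factor that supports growth, was 889 and 2709 (3.05-fold). Hesx1, a homeobox gene of the anterior endoderm, went the other way at 1129 and 98.7 (11.4-fold).

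Among forkhead factors, the named members of 1 subfamily lay on 1 side, with 6 higher and 4 lower of 29. Foxa1, Foxa2 and Foxa3 were 1895, 3247 and 557 in endoderm and all below the floor in mesoderm. Foxd4 was 1864 and 54 (at least 23.1-fold). Foxc1, Foxc2 and Foxf1, factors of mesenchyme and vessels, were 179.8, 226 and 216 in endoderm and 1209, 2371 and 1098 in mesoderm. Of the nuclear receptors and hepatic factors, 6 of 39 were higher. Hnf4a, a central factor of liver and visceral endoderm, was 2471 and 94 (26.3-fold), and Nr2f6 was 783 and 242 (3.24-fold). Maf was 885 and 209.6 (4.22-fold) with 4 of 4 probe sets at least 2-fold higher. Rxra, the common partner receptor, was level at 239 and 264. Sox17 was 4169.6 and 116 (35.9-fold), while Sox7 of the same subgroup was level at 351 and 322. GATA, KLF and SP factors were higher for 7 (range 3 to 7) of 26, with Klf5 at 512 and 189 (2.71-fold). Gata4 and Gata6, which both act in endoderm and heart, were 562 and 274 (2.05-fold), and 644 and 1079, the second within 2-fold. Zinc finger genes named Zfp had 7 (range 4 to 8) higher and 11 (range 6 to 17) lower of 281 (2.49% and 3.91%). The higher share was below that of all genes, and the lower one equalled it.

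Retinoid genes went both ways. Of 35 aldehyde and retinol dehydrogenases and retinoid genes, 10 were higher and 4 lower in endoderm. The higher genes included Rbp4, the serum carrier of retinol, at 8942 and 143 (62.3-fold), and Bco1, which splits carotene into retinal, at 321 and 52.9 (at least 3.98-fold). Higher as well were dehydrogenases of other substrates, such as Aldh18a1 of proline synthesis at 2878 and 852 (3.38-fold), with 5 of 5 probe sets. The synthetic enzyme of retinoic acid, Aldh1a2, was 283 in endoderm and 2894 in mesoderm, or 10.2-fold lower. The binding proteins Crabp1 and Crabp2 were 139 and 2079.7 (15-fold), and 162 and 710.4 (4.4-fold). Cyp26a1, which breaks retinoic acid down, was 2131 and 923 (2.31-fold).

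Detoxification and lipid enzymes had more higher than lower members. Of 38 cytochrome P450, glutathione transferase and conjugating enzymes, 15 (range 8 to 16) were higher and 3 lower. Gstm1 was 1652 and 175 (9.43-fold), and Mgst3 was 1901 and 289 (6.59-fold). Gpx3, the secreted glutathione peroxidase, was 3929 and 521 (7.54-fold). Fatty acid and peroxisome genes were higher for 18 (range 11 to 18) and lower for 5 (range 3 to 6) of 71. The storage enzymes Dgat2 and Agpat3 were 2649 and 499.9 (5.3-fold), and 899.99 and 133 (6.77-fold). Enzymes that make long unsaturated fatty acids went the other way. Fads2 was 200.4 in endoderm and 822 in mesoderm (4.1-fold) with 3 of 3 probe sets, and Fads1 was 248 and 825 (3.32-fold) with 1 of 2. Of the fatty acid binding proteins, Fabp2 of the gut was 408 and 122 (3.33-fold), while Fabp7 was 134 and 593 (4.43-fold). Cholesterol synthesis was higher for 3 of 22, and its entry enzyme Hmgcs1 was close at 1849 and 2007. Enzymes that build sugar chains went both ways, with 14 (range 6 to 14) higher and 8 (range 5 to 9) lower of 77. Galnt3, which starts mucin-type chains, was 355 and 27.9 (at least 4.4-fold), while the sulfotransferases Hs6st2, of heparan sulfate, and Chst7, of chondroitin, were 224 and 1030.04 (4.61-fold), and 119.8 and 579 (4.83-fold).

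Families of the machinery that every cell uses had few or no members past 2-fold. No cytosolic ribosomal protein of 46, no mitochondrial one of 76, no DNA replication gene of 51, no histone gene of 16 and no glycolytic gene of 24 reached 2-fold in either direction. Oxidative phosphorylation had 1 of 79, but 74 of its members had a positive difference, with a median of 0.28 against 0.08 for all genes. Replication genes were negative for 34 of 51, with a median of -0.12. Pcna was 7574 and 8592, and Mcm2 was 3351 and 3772. Such shifts are within the spread between probe sets for any single gene. Among cyclins, kinases and mitotic genes, 4 were higher and 4 lower of 85. Cdkn2a, which encodes cell cycle inhibitors, was 502 in endoderm and 20.7 in mesoderm (at least 6.23-fold). The G1 cyclins Ccnd1 and Ccnd2 were lower, at 1446 and 3171 (2.19-fold), and 1355 and 3290.1 (2.43-fold), and their kinase gene Cdk6 was 240.1 and 716 (2.98-fold). All probe sets above the floor of these genes were at least 2-fold lower in endoderm, 3, 7 and 2 of them.

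Regulators of RNA and chromatin had few large differences. Of 139 RNA-binding genes, 7 were higher and 8 (range 4 to 10) lower. Rbm47 was 973 and 44.5 (at least 12.1-fold), and Mbnl1 was 594 and 134 (4.45-fold). Rbm24, of heart and muscle, was lower at 276 and 1382 (5-fold). Of 138 chromatin modifiers, 6 were higher and 6 (range 3 to 9) lower. Cbx7, a Polycomb subunit, was 724 and 68.2 (at least 8.98-fold) by 1 of 2 probe sets, and Prdm1 was 442 and 98.8 (4.48-fold). Smarcd3, a remodelling subunit of heart precursors, was 90 and 889 (9.88-fold). Ubiquitin ligases and related genes were higher for 16 (range 8 to 16) and lower for 4 of 239, both shares below those of all genes. The ligase gene Rnf128 was 2756 and 249 (11.1-fold).

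Imprinted genes, which are expressed from the allele of 1 parent and often act on growth, went both ways, with 11 (range 7 to 11) higher and 7 lower of 34 (32.4% and 20.6%, against 11.7% and 3.91% of all genes). Sfmbt2 was 808 in endoderm and 61.6 in mesoderm (at least 10-fold). Noncoding transcripts of the Dlk1-Meg3 cluster were higher together. Mirg was 698 and 160.1 (4.36-fold), Rian was 5384 and 1389 (3.88-fold), and Meg3 was 4414 and 1502 (2.94-fold) with 10 of 10 probe sets at least 2-fold higher. The protein-coding Dlk1 of that cluster was 791 and 243 (3.26-fold). On the lower side stood Mest at 509 and 2729 (5.36-fold), Plagl1, a zinc finger factor of an imprinted network, at 171 and 782 (4.57-fold), and Phlda2, a brake on placental growth, at 1806 and 7889 (4.37-fold). Igf2, the main imprinted growth factor, was within 2-fold at 5712 and 3421. Grb10 was close at 5626 and 5385, and Peg3 at 7211 and 7169.8. Arrays do not resolve the parental alleles.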

How the data were processed

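Total RNA of each layer was labelled with biotin and hybridised to 1 Affymetrix array per layer. The authors made the deposited intensities, which are linear and not in log2, with RMA and the affy package, and the sources used here name no versions and no later rescaling. The arrays had medians of 79.9 (endoderm) and 79.9 (mesoderm), upper quartiles of 319 and 276, and 22 and 32 values of exactly 1. RMA as commonly run gives every array the same quartiles on a log2 scale, so a later rescaling is possible, and unequal scaling of the arrays would move the counts of higher and lower genes.

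Of 45037 probe sets, 34945 had 1 gene symbol, 932 had several and 9160 had none. The symbol came from GEO's platform annotation, and 34741 were found in RefSeq by Entrez ID. Values were taken to log2 and subtracted with Python 3.11.15, numpy 2.4.6 and pandas 2.3.3, and alternative scalings were run in R 4.3.3 with limma 3.58.1. The code was tested on simulated data in which only bright genes were changed, equally in all probe sets of a gene. That test does not cover dim values or probe sets that disagree. A gene was called at a 2-fold difference. Where the lower value was below the floor, it was raised to the floor, and the fold is a bound. With 1 array a side the number of arrays limits the precision and no test was possible.

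Members, families and lists were chosen with earlier results of these data known, and symbols that a family's pattern matched wrongly were taken out by identity. A signalling family is not reported here. Named were the 15 genes with the largest bounded difference in each direction, the key members of each family, up to 5 members with the largest bounded difference and up to 3 at least 2-fold against the family's median, the members of paralogue pairs, and up to 5 of the described symbol stems. Adamts20, Bco1, Ctsa, Dlk1, Htra1, Meg3, Mirg, Mycn, Pbx3, Rian, Scarb1, Tfeb, Tnni1 and Zeb1 were named after their values were seen.

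RefSeq windows on GRCm38.p6 (32851, of which 10043 of 12426 genes had at least 1) were searched on both strands for 9 motifs: the E-boxes CAGGTG and CAGCTG and CATCTG and CACGTG, the GATA motif AGATAA, the forkhead motif TGTTTAC, the HNF1 motif GTTAATNAT, the HNF4 motif CAAAGTCCA and the TFEB motif TCACGTGA, which contains CACGTG.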

Additional observations from a re-analysis of the deposited data

How the results depend on the processing

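Between 1093 and 1474 genes were at least 2-fold higher in endoderm under the 10 alternatives that kept the 2-fold limit, and between 319 and 595 were lower. The lower count was 319 with the floor at the 75th percentile, an intensity of 286, where fewer genes were compared. At a 3-fold limit 766 genes were higher and 218 lower. The higher share of all called genes was 74.96% and fell to 66.04% under quantile normalization. Of 839 family medians recomputed under the alternatives, 804 moved by less than the pooled SD between probe sets and 35 by more. The sign of the median changed in 58 of them, over 24 lists of which the farthest from 0 was at 0.20, most often under quantile normalization, and no median past 2-fold changed sign. The primitive erythroid list had no value with the higher floor. Of 2124 values of the named genes, 1932 moved by less than that SD and 192 by more, mostly with the mean of all probe sets, the offset and dim values raised to the floor. No paired analysis was possible because each layer had 1 array, and for the same reason no replicate could be left out. Genes below the floor were not compared, and a difference between layers cannot be told apart from one between arrays.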

Other observations

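Genes that share a symbol stem were counted apart from the families, over the 145 stems with at least 10 genes above the floor. Of 18 Abhd genes, hydrolases of which many act on lipids, 6 were at least 2-fold higher in endoderm and none was lower. Mfsd genes, orphan carriers for the most part, were higher for 4 of 12. Mtmr genes, of the phosphoinositide phosphatases that act on endosomes, were higher for 3 of 11, and Commd genes, of the complex that returns receptors from endosomes, for 3 of 10. In the other direction, 3 of 10 Myl genes, the myosin light chains, and 3 of 11 Fgf genes were lower. The shares over all genes were 11.7% and 3.91%. The stems were chosen for description after their counts were seen, and counts this small have no error beyond the spread between probe sets.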
